A study of Mus musculus with 9 samples.

Results

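The response to a GL261 glioma was measured in meningeal lymphatic endothelial cells (MLECs, as the labels name the sorted cells), the cells that line the lymphatic vessels of the membranes around the brain. GL261 is a mouse glioma line that grows in C57BL/6 mice. The comparison takes the 3 GL261 libraries and the 3 control libraries, 6 of the 9 libraries of the series, and every gene that reached an FPKM of 1 in 3 or more of these 6 libraries, which made 8774 of the 24321 genes listed. FPKM is a fragment count divided by transcript length and by library size, so that it can be compared between genes as a level per length. The tested genes and the contrast were set by the library labels and this expression limit, not by the size of a difference. The gene lists, the rule for naming genes and the libraries were chosen with earlier results of these data known.

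Male mice, 10 weeks old by the labels and of the strain C57BL/6 by the methods of the study, had received GL261 cells about 3 weeks before collection or PBS as control, for which the labels give no time. The results text of the study gives another time for GL261 than the labels. The labels place the injection in the cisterna magna, whereas the methods describe a subdural injection. Cells from the meninges of 6 pooled mice were sorted on CD31, CD45 and LYVE-1 by the methods (the results text of the study names PDPN in place of LYVE-1), and 10 sorted cells made each Smart-seq2 library. The replicates are therefore different pools of mice, each seen through 10 cells. The other 3 libraries came from mice with B16 melanoma, about 2 weeks after injection, and serve here only for a direct test between the tumors and for values set side by side. With 10 cells in a library, fewer cells of a type and less RNA per cell cannot be told apart.

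Lymphatic endothelium is held in its identity by the transcription factor Prox1, senses the growth factor VEGF-C through VEGFR3 (Flt4), and secretes the chemokine CCL21, which draws dendritic cells and lymphocytes that carry the receptor CCR7 into the vessel. Meningeal lymphatic vessels carry fluid, solutes and immune cells from the borders of the brain to the lymph nodes of the neck. Blood vessel endothelium shares the general endothelial genes but is marked by another set, among them Cd34, Emcn, Flt1 and the Ly6 surface proteins.

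Of 21 tested genes of the lymphatic set 9 were called lower in GL261 MLECs, Ccl21c and Flt4 among them, and of 26 of the blood endothelial set 10 were called higher, Ly6c1, Ackr1, Cd34, Flt1 and Emcn among them. Over all tested genes 2.59% were called higher and 0.775% lower. With a GL261 library left out 1 or 2 lymphatic and 3 blood endothelial members were called. Of the blood endothelial members called, Ly6c1, Ackr1, Nostrin, Aplnr and Flt1 were under 1 FPKM in every control library. They reached the expression limit through the GL261 libraries alone. Of the lymphatic members called, Hoxd8 and Hoxd10 reached it through the control libraries alone. Prox1, Lyve1 and Pdpn were not called, and Nts, of the lymphatic set, and Unc5b, Cd300lg and Cxcl12, of the blood endothelial set, had differences of the opposite sign to the rest of their set. Igfbp3, a secreted binding protein of insulin-like growth factors, went from under 1 FPKM to over 2000 in every GL261 library. Among tested genes, 5 of 17 of MHC class I, 5 of 17 induced by interferon gamma and 21 of 76 ribosomal protein genes (2 after rescaling, 1 after quantile normalization, 0 without a trend) were called higher, and 0 of them with any GL261 library left out. Of these, H2-Q8, H2-Q9, Cxcl10, Cxcl9 and Socs1 reached the expression limit through the GL261 libraries alone. Among the genes that fell, Cyp4b1, Cd36, Prelp and Dcn had under 10 FPKM in every GL261 library. Dcn reached the expression limit through the control libraries alone.

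Differences are given as GL261 minus control on the scale log2(FPKM + 1) with the standard error (SE) of limma, and a gene is called when the p adjusted over all 8774 tested genes by the Benjamini-Hochberg method is under 0.05. Values per library are given in the order of replicates 1, 2 and 3. Of the 8774 tested genes, 295 (3.36%) were called, 227 (2.59%) higher and 68 (0.775%) lower in GL261 than in control MLECs. The median difference was 4.06 over the genes called higher and -3.62 over the genes called lower. All 295 had groups without overlap, a pattern that 2068 tested genes showed (23.6%), 1195 of them higher (13.6%) and 873 lower (9.95%). After rescaling 913 were higher and 1166 lower without overlap, and after quantile normalization 976 and 1111, so that the balance turned to lower genes. An unadjusted p under 0.05 was reached by 1529 genes, 1016 higher and 513 lower.

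The excess of higher genes depended on how genes at 0 and library scale were treated. Over all tested genes the median difference was 0.22, and it was -0.01 after each library had been rescaled to the same sum and -0.05 after quantile normalization. The share of called genes that were higher was 76.9% as deposited, 65.7% after rescaling, 63.1% after quantile normalization and 51.7% when only the 4912 genes above 0 in all 6 libraries were tested. Of the 227 genes called higher, 101 were listed at 0 in each control library and 153 in at least 1 of them. Of the 68 called lower, 5 were listed at 0 in all GL261 libraries and 19 in at least 1. By the filter, 360 tested genes reached the limit through the GL261 libraries alone, 128 of which were called higher, and 53 through the control libraries alone, 16 of which were called lower.

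Library depth differed between the groups. In the control libraries 7303, 8688 and 8152 genes had an FPKM above 0, and in the GL261 libraries 10777, 10852 and 9456 (exact permutation test, two-sided, p = 0.1, the smallest p that 3 against 3 libraries allow). The files hold no read counts, so depth was read from the lowest values. In genes with a single transcript model of at least 2 kb, FPKM multiplied by transcript length in kb clustered at a smallest value and its whole multiples, which was taken as the worth of 1 fragment. It was 0.648, 0.548 and 0.886 in control and 0.141, 0.132 and 0.239 in GL261 libraries, which makes the GL261 libraries 6.29, 6.73 and 3.70 times as deep as control replicate 3, and control replicates 1 and 2 1.37 and 1.62 times. Below 3.5 such units, 62.3% to 86.8% of the genes of a library lay within 10% of a whole multiple. Each GL261 library was thus deeper than each control library, and depth and glioma cannot be told apart by design. The housekeeping gene Tbp was at 0 in control replicates 1 and 3, at 1.31 FPKM in control replicate 2 and at 11.8, 12.3 and 9.06 FPKM in GL261 libraries, so a 0 in a control library is no proof of absence, and such genes are called listed at 0.

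**Figure D1:**
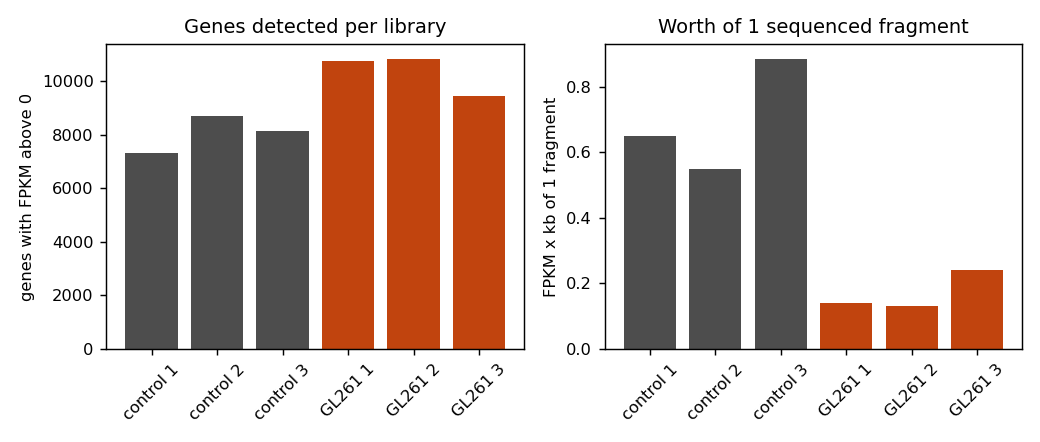
Genes with an FPKM above 0 (left) and FPKM times kb of transcript that corresponds to 1 sequenced fragment (right) in each of the 3 control and 3 GL261 libraries, with 1 bar per library. The GL261 bars are higher on the left and lower on the right than every control bar.

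Replicates of the GL261 group were also more alike. Across the tested genes, which are not independent replicates, the correlation of log2(FPKM + 1) between 2 libraries was 0.81 to 0.88 within GL261, 0.63 to 0.67 within control and 0.59 to 0.69 between the groups. The median SD of a gene over its 3 libraries was 1.1 in control and 0.64 in GL261 MLECs on the log2 scale, and the control SD was the larger for 6243 genes. The number of calls rested on having all libraries. Without GL261 replicate 1, 2 or 3 it was 19, 17 or 18, and without control replicate 1, 2 or 3 it was 137, 201 or 145 (27, 33 and 27 of them lower). With any library left out 11 genes stayed called, Ackr1, Ctla2a, Emcn, Fam167b, Igfbp3, Ly6c1, Rn45s and Tmem252 higher and Cyp4b1, Gm1987 and Sepp1 lower (Rn45s and Sepp1 chosen after their values were seen). Of these, Ackr1, Fam167b, Igfbp3, Ly6c1 and Tmem252 were under 1 FPKM in every control library and reached the expression limit through the GL261 libraries alone. No called gene changed the sign of its difference in any of the alternatives run, scalings included. With the log2 number of detected genes in the model, which moves with the group, 2 genes were called, Igfbp3 and Ly6c1.

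The sorting markers were checked first. Pecam1, which encodes CD31, had 293, 291 and 149.5 FPKM in control and 384, 318 and 309 FPKM in GL261 libraries. Lyve1, the hyaluronan receptor used for sorting, had 1705, 1250.4 and 974 FPKM in control and 777, 660.2 and 1709 FPKM in GL261 libraries. Pdpn, which encodes podoplanin, had 147, 316 and 372 in control and 42.9, 32.0 and 218 FPKM in GL261 libraries. All these genes were present in every library, Pecam1 was higher in each GL261 library than in each control library, and the groups overlapped in Lyve1 and Pdpn. None was called (limma's adjusted p 0.497, 0.644 and 0.207, differences 0.52, -0.41 and -1.93). Ptprc, which encodes CD45, the marker used to sort leukocytes out, was listed at 0 in all 9 libraries.

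Prox1, the regulator of lymphatic fate, was at 20.9, 33.7 and 42.2 FPKM in control and 1.87, 1.98 and 16.5 FPKM in GL261 libraries. Every GL261 library lay below every control library, GL261 replicate 3 held most of the signal of its group, and the gene was not called (difference -2.59, SE 0.90, limma's adjusted p = 0.171). Pecam1, Lyve1, Pdpn and Prox1 were thus above 0 in all 6 libraries.

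Of the 24 genes on the list of lymphatic identity 21 were tested, and 9 of them were called, all lower (42.9% of the tested members, against 3.36% of all tested genes). Of the 9, Hoxd8 and Hoxd10 reached the expression limit through the control libraries alone. The median difference of the list was -2.73, against 0.22 over all tested genes, and 20 of the 21 members had a negative difference. After rescaling and after quantile normalization the median was -3.04 and -2.96, with 9 and 8 members called lower. With the replicate block 4 were called, with equal numbers of detected genes 5, and with every gene above 0 tested 1. Without a trend 4 were called, and Flt4, Reln, Mmrn1, Fxyd6 and Pard6g were not. With 1 control library left out 3 or 4 members were called, and with 1 GL261 library left out 1 or 2. The summed FPKM of the list was 14919, 18316 and 15016 in control and 2205, 1151 and 3280 in GL261 libraries. Ccl21c and Ccl21b made most of it in control, and without the Ccl21 genes it was 4458, 4147 and 3647 in control and 1167, 873 and 2631 in GL261 libraries.

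Flt4, which encodes the VEGF-C receptor VEGFR3, had 174, 205 and 219.8 FPKM in control and 40.1, 45.4 and 49.0 FPKM in GL261 libraries. The libraries of each group were close together and the groups far apart. Flt4 fell by 2.13 on the log2 scale (SE 0.34, limma's adjusted p = 0.0212). Reln, which encodes the secreted protein reelin, had 69.1, 64.4 and 70.8 in control and 18.7, 5.11 and 6.40 FPKM in GL261 libraries, with the control libraries nearly equal and every GL261 library lower (difference -2.84, SE 0.62, limma's adjusted p = 0.049). Mmrn1, a multimerin stored by lymphatic endothelium, had 842, 966 and 887 in control and 155, 52.6 and 293 FPKM in GL261 libraries. GL261 replicate 3 kept the most and replicate 2 the least, and all were below control (difference -2.73, SE 0.55, limma's adjusted p = 0.0403).

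Thy1, a surface glycoprotein of lymphatic vessels, had 222, 325 and 367 FPKM in control and 16.9, 7.28 and 44.1 FPKM in GL261 libraries (difference -3.99, SE 0.62, limma's adjusted p = 0.021). Fxyd6, a regulator of the sodium pump, had 751, 375 and 309 in control and 12.6, 15.5 and 75.5 FPKM in GL261 libraries (difference -4.10, SE 0.69, limma's adjusted p = 0.0253). Pard6g, a cell polarity gene, had 328, 190.1 and 95.2 in control and 21.5, 7.83 and 28.6 FPKM in GL261 libraries (difference -3.34, SE 0.64, limma's adjusted p = 0.0366). In these genes too GL261 replicate 3 was the highest of its group, and no GL261 library reached a control library.

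The list holds genes of the Hoxd cluster, which set position along the body axis. Hoxd8 had 11.1, 77.4 and 36.7 FPKM in control and 0.185, 0.174 and 0 FPKM in GL261 libraries (difference -4.88, SE 0.94, limma's adjusted p = 0.0367). Hoxd10 had 24.6, 34.2 and 11.8 FPKM in control libraries and was listed at 0 in all GL261 libraries (limma's adjusted p = 0.0304). Both genes were under 1 FPKM in every GL261 library and so reached the expression limit through the control libraries alone. Both calls were lost with 10 added to FPKM, with the replicate block and with any GL261 library left out. Hoxd9 had 30.7, 38.5 and 25.7 in control and 4.6, 2.40 and 7.15 FPKM in GL261 libraries without overlap and was not called (limma's adjusted p = 0.0873). In the GENCODE M1 annotation of mm9 these genes lie together on chromosome 2, Hoxd10 from 74529147 to 74533163, Hoxd9 from 74535737 to 74538265 and Hoxd8 from 74542672 to 74545990. At the estimated depth 1 fragment of Hoxd10 would read as 0.0531, 0.0496 and 0.0903 FPKM in the GL261 libraries. Among members that were not called, Maf had 46.2, 54.7 and 116 in control and 16.1, 6.88 and 5.15 FPKM in GL261 libraries, and Stab2 had 2.82, 30.3 and 10.6 in control and 0.573, 0 and 0.0556 FPKM in GL261 libraries, each lower in every GL261 library than in every control library. Nts, which encodes neurotensin, was the 1 member with a positive difference, at 0, 0.565 and 0 FPKM in control and 19.96, 5.18 and 122 FPKM in GL261 libraries (limma's adjusted p = 0.082).

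The chemokine genes Ccl21 lie on chromosome 4 in near-identical copies that may share reads, so their FPKM are reported together. The 6 copies summed to 58479, 78656 and 66280.4 FPKM in control and to 6082, 1568 and 3236 FPKM in GL261 libraries, which was 8.79%, 11.3% and 10.2% of all FPKM in control and 0.724%, 0.177% and 0.421% in GL261 libraries. The copies thus made over 8% of all FPKM in each control library and under 1% in each GL261 library. Gm1987, the most abundant entry, had 33261, 37115 and 35396 FPKM in control and 3438, 1006 and 1294 FPKM in GL261 libraries (difference -4.42, SE 0.39, limma's adjusted p = 0.00238). The copies Ccl21c, Gm10591 and Gm13304 were called as well, with differences of -4.57, -4.59 and -4.54 (limma's adjusted p 0.0126 for each), and their values in a library are almost equal. Whether they share reads was not tested. Ccl21b was not called, at 3075, 365 and 1618 FPKM in control and 228, 136 and 3.00 FPKM in GL261 libraries.

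**Figure D2:**
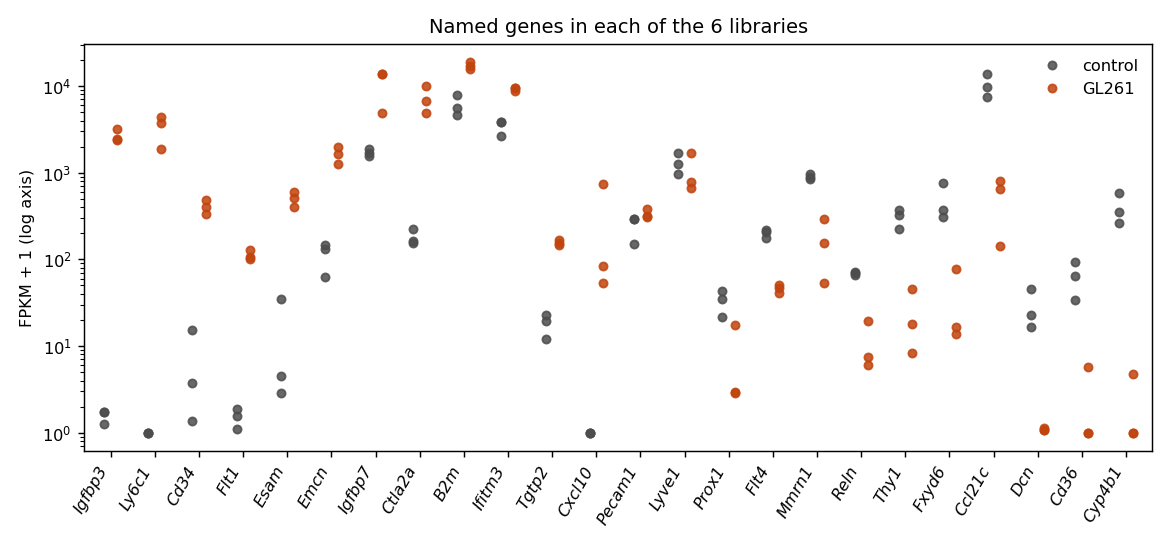
FPKM + 1 (log axis) of 24 named genes in each of the 3 control and 3 GL261 libraries, with 1 point per library. Genes higher in GL261 libraries are on the left and genes lower in them on the right, and the groups overlap in Lyve1 alone among the genes drawn.

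Of the 30 genes of the blood endothelial list 26 were tested, 10 were called higher and 0 lower, and 16 did not pass. The called genes were 38.5% of the tested members, against 3.36% of all tested genes. The median difference was 2.31, with 23 positive. It was 2.25 after rescaling and 2.21 after quantile normalization, with 9 and 10 members called. Among the 14 members above 0 in all 6 libraries it was 1.14 with 3 called. Of the called members, Ly6c1, Ackr1, Nostrin and Aplnr were listed at 0 in every control library, and Flt1 was under 1 FPKM in each. These members reached the expression limit through the GL261 libraries alone. Without a control library 9 to 12 members were called, and without a GL261 library 3. The summed FPKM of the list, of which the Ly6 genes made the largest part in GL261 libraries only, was 1393, 2413 and 1481 in control and 16988, 15763 and 8063 in GL261 libraries. It was below the sum of the lymphatic list in every control library and above it in every GL261 library, and MLEC remains here the name of the sorted cells, not a finding on their type.

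Ly6c1, a surface protein of blood endothelium and of some leukocytes, was listed at 0 in each control library and had 4375, 3719.9 and 1886 FPKM in GL261 libraries (limma's adjusted p = 1.88e-05). At the estimated depth 1 fragment of Ly6c1 would read as 0.772, 0.652 and 1.05 FPKM in the control libraries. No fold or log2 difference is given for a gene whose group is at 0 throughout, since it would depend on the number added to FPKM. Ly6a had 0, 206 and 0 FPKM in control and 6650.0, 4623 and 1329.9 FPKM in GL261 libraries, with 1 control library above 0 (difference 9.19, SE 1.87, limma's adjusted p = 0.0426). Ly6a, Ly6c1 and Ly6c2 lie next to each other on chromosome 15 and are similar in sequence, so that they may share reads. Ly6c2, which is not on the list, was listed at 0 in control and had 108, 99.7 and 53.5 FPKM in GL261 libraries. It was called too (limma's adjusted p = 0.00835) and reached the expression limit through the GL261 libraries alone.

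Ackr1, the chemokine scavenger of venules, was listed at 0 in each control library and had 543, 168 and 636 FPKM in GL261 libraries (limma's adjusted p = 0.00151). Emcn, a sialomucin of veins and capillaries, was present in both groups, at 145, 129 and 61.4 FPKM in control and 1625, 1983 and 1249 FPKM in GL261 libraries. No control library came near a GL261 library in Emcn, and the difference was 3.91 (SE 0.37, limma's adjusted p = 0.00339). Cd34, a sialomucin of capillaries, had 2.73, 14.3 and 0.37 in control and 329.7, 478 and 396 FPKM in GL261 libraries (difference 6.54, SE 0.83, limma's adjusted p = 0.0122). Flt1, the VEGF receptor of blood vessels, had 0.0997, 0.856 and 0.544 in control and 105, 128 and 99.1 FPKM in GL261 libraries (difference 6.24, SE 0.66, limma's adjusted p = 0.00573). In both of these genes the GL261 libraries were close to each other and far above the control libraries, of which replicate 2 was the highest.

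The other called members were Rgcc, an inhibitor of endothelial growth, with 9.26, 0 and 1.22 in control and 311, 1411 and 168 FPKM in GL261 libraries (limma's adjusted p = 0.0176), and Vwf, the adhesive protein von Willebrand factor, with 0, 1.92 and 0.0956 in control and 62.2, 26.8 and 54.1 FPKM in GL261 libraries (limma's adjusted p = 0.0268). Nostrin, which binds nitric oxide synthase, and Aplnr, the apelin receptor, were listed at 0 in every control library, and in GL261 libraries Nostrin had 72.5, 81.2 and 117 FPKM and Aplnr 17.3, 72.0 and 107 FPKM (limma's adjusted p 0.00719 and 0.0229). No member of the list was called lower. Plvap, the diaphragm protein of fenestrated vessels, was abundant in both groups at 686, 1390.3 and 905 in control and 1813, 2004 and 1462 FPKM in GL261 libraries and was not called (limma's adjusted p = 0.138). Unc5b had 21.5, 27 and 21.6 in control and 5.91, 2.79 and 3.44 FPKM in GL261 libraries, and Cd300lg had 75.7, 110.2 and 123 in control and 25.4, 75.4 and 39.4 FPKM in GL261 libraries, with negative differences of -2.31 and -1.23 that were not called.

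Some genes are shared by blood and lymphatic endothelium. All 24 members of the pan-endothelial list were tested, and 2 were called higher and 1 lower (12.5%, against 3.36% of all tested genes). The median difference was 0.63 (0.32 after rescaling and after quantile normalization, each with 1 called higher and 1 lower). With detected genes as a covariate it was -0.50, with 11 of 24 positive and 0 called. Esam, an adhesion molecule of endothelial junctions, rose most, with 1.89, 34.1 and 3.57 in control and 400.1, 511 and 601 FPKM in GL261 libraries (difference 6.01, SE 0.86, limma's adjusted p = 0.0176). Ecscr, a membrane protein of endothelial cells, had 385, 369.7 and 487 in control and 958, 762 and 807 FPKM in GL261 libraries (difference 1.03, SE 0.22, limma's adjusted p = 0.0493). Cldn5, a claudin of tight junctions, had 1497, 1529 and 1702 in control and 765, 698 and 890.1 FPKM in GL261 libraries (difference -1.01, SE 0.19, limma's adjusted p = 0.0336). All of these had groups without overlap, and with any GL261 library left out none of the 3 was called. Cdh5, the cadherin of endothelial junctions, was at 37.9, 71.1 and 93.3 FPKM in control and 93.9, 84.4 and 73.6 FPKM in GL261 libraries, with overlap.

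Markers of brain capillaries were mostly low or at 0. Of the 20 genes of the blood-brain barrier list 8 were tested and 1 was called, Slc2a1, the glucose transporter GLUT1, at 17.9, 7.37 and 0 FPKM in control and 211, 311 and 312 FPKM in GL261 libraries (difference 5.66, SE 0.99, limma's adjusted p = 0.0279). The barrier genes Mfsd2a, Slco1c1, Slc22a8, Apcdd1 and Spock2 were listed at 0 in all 6 libraries. The list summed to 699, 733 and 743 FPKM in control and 826, 951 and 983 FPKM in GL261 libraries, and its most abundant gene over the 6 libraries was Bsg, at 366, 380.3 and 434 in control and 390.3, 343 and 288 FPKM in GL261 libraries.

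Markers of other cells of the meninges were counted beside these results. The part of other cells in the results was not tested, and these are values. Of 12 mural cell genes 2 were tested and 0 called, and the list summed to 1307 FPKM in control replicate 1 and 203 and 170 FPKM in the other control libraries, against 57.1, 17.6 and 68.1 FPKM in GL261 libraries. Among control libraries, replicate 1 held Tagln (641 FPKM), Acta2 (505 FPKM) and Myh11 (57.2 FPKM), against 0 to 0.0813 FPKM in the others, and its Myl9, from the actin list, was at 1261 FPKM against 0, while Des and Vtn were listed at 0 in all 6 libraries. Of 14 meningeal fibroblast genes 4 were tested and 1 was called, Dcn, lower in GL261 MLECs. Dcn reached the expression limit through the control libraries alone. Pdgfra, Lum, Dpt, Aldh1a2 and Slc6a13 were listed at 0 throughout. The list summed to 195, 938 and 30.2 FPKM in control and 3981, 2547 and 1491 FPKM in GL261 libraries, with Mgp, a matrix protein that endothelium makes too, most of it in every library but control replicate 3, at 159, 744 and 0 in control and 3959, 2537 and 1487 FPKM in GL261 libraries (limma's adjusted p = 0.19).

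Of 16 macrophage and microglia genes 9 were tested and 0 called (1 lower after quantile normalization, with 10 added to FPKM, without a trend, with array weights, with all 9 libraries and without control replicate 1, and 2 lower among genes above 0 in all 6 libraries), with sums of 335, 558 and 666 FPKM in control and 172, 875 and 280.3 FPKM in GL261 libraries. Fcer1g was the most abundant, at 201, 261 and 390.2 in control and 108, 43.5 and 17.8 FPKM in GL261 libraries, and Ptprc, Adgre1 and Itgam were listed at 0 in all 6 libraries. GL261 replicate 2 stood above the other GL261 libraries in Lyz2 (2.33, 324 and 14.8 FPKM) and C1qa (0.323, 186 and 22.4 FPKM). Of the 13 lymphocyte and dendritic cell genes in the table, 11 were listed at 0 in all 6 libraries, and the highest was Cd79a at 22.4 FPKM in control replicate 2. Of the 12 neutrophil, platelet and red cell genes 8 were at 0 throughout, and the highest was Itga2b at 4.11 FPKM. Of the 16 neural and glioma genes 8 were at 0 throughout, Gfap and Sox2 among them, and the sums were 0.102, 0 and 0.472 FPKM in control and 19.0, 13.5 and 23.8 FPKM in GL261 libraries. Tubb3 was listed at 0 in control and had 13.4, 0.253 and 23.8 FPKM in GL261 libraries. No gene of these last 3 lists reached the expression limit, and the sort on CD45 would remove leukocytes.

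The largest rise among genes above 0 in all control libraries was in Igfbp3, from the binding proteins of insulin-like growth factors, which hold these growth factors in tissue fluid and act on cells as well. Of 11 genes of the pathway 7 were tested, and 2 were called higher and 0 lower. These were 28.6% of the tested members, against 3.36% of all tested genes. The median difference was 1.74 (1.87 after rescaling, 0.87 after quantile normalization, where 3 were called higher and 1 lower). Igfbp3 had 0.276, 0.711 and 0.748 FPKM in control and 2475, 2354 and 3206 FPKM in GL261 libraries. It thus reached the expression limit through the GL261 libraries alone. The control values correspond to about 1 to 3 fragments at the estimated depth of 0.268, 0.226 and 0.366 FPKM per fragment, and every GL261 library was above 2000 FPKM. Igfbp3 rose by 10.73 (SE 0.39, limma's adjusted p = 1.86e-05) and was called in all 19 alternatives in which it was tested. It lies on chromosome 11 of mm9 from 7106089 to 7113926.

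Igfbp7, a matrix protein of vessels, was abundant in control libraries at 1680.5, 1876 and 1546 FPKM and reached 13844, 13833 and 4928 FPKM in GL261 libraries. GL261 replicates 1 and 2 were nearly equal and replicate 3 was lower, and all were above control (difference 2.53, SE 0.37, limma's adjusted p = 0.0178). Igfbp5 had 28.6, 22.8 and 3.66 in control and 546, 266 and 83.5 FPKM in GL261 libraries and Igfbp4 had 502, 878 and 567 in control and 237, 279.9 and 356 FPKM in GL261 libraries, in opposite directions, each without overlap and neither called (limma's adjusted p 0.0532 and 0.0819). The receptor genes were low, with Igf1r at 5.47, 5.80 and 3.08 FPKM in control and 0.505, 1.04 and 0.895 FPKM in GL261 libraries.

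Ctla2a, which encodes a small inhibitor of cathepsins, had 155, 222 and 161 in control and 10094, 6682 and 4895 FPKM in GL261 libraries, the largest called rise among genes with a mean of at least 100 FPKM in control (difference 5.28, SE 0.29, limma's adjusted p = 0.000178). Several further genes, Clu apart, were at or near 0 in control libraries. Tmem252, Fam167b, Ms4a6d and Gsto1 reached the expression limit through the GL261 libraries alone. Tmem252, a membrane protein of little known function, had 0.546, 0.938 and 0 in control and 583, 404 and 561 FPKM in GL261 libraries (difference 8.47, SE 0.54, limma's adjusted p = 0.000417). Fam167b and Ms4a6d were listed at 0 in every control library, and in GL261 libraries Fam167b had 231, 775 and 588 FPKM and Ms4a6d 191, 190.0 and 195 FPKM (limma's adjusted p 0.000778 and 0.00155). Ms4a6d was almost equal in the 3 GL261 libraries, whereas Fam167b was lowest in replicate 1. Gsto1, a glutathione transferase, had 0, 0.577 and 0 in control and 611, 308 and 67.9 FPKM in GL261 libraries (difference 7.66, SE 0.88, limma's adjusted p = 0.00835). Clu, the extracellular chaperone clusterin, had 0.389, 10.4 and 14.7 in control and 86.9, 163 and 119.8 FPKM in GL261 libraries (difference 4.26, SE 0.92, limma's adjusted p = 0.049).

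Among the falls, Cyp4b1, a cytochrome P450 enzyme, was the largest. The gene had 576, 259 and 349 FPKM in control libraries, 3.73 FPKM in GL261 replicate 1 and was listed at 0 in the other GL261 libraries (difference -7.80, SE 0.76, limma's adjusted p = 0.0037). Of the genes called lower, 5 were listed at 0 in all GL261 libraries, among them Pygm, Fibin and Pgc. These 5 reached the expression limit through the control libraries alone, as did Sh3gl3 and A4galt. In control libraries Pygm, the glycogen phosphorylase of muscle, had 24.0, 48.7 and 46.1 FPKM, Fibin had 91.8, 7.43 and 39.1 FPKM and Pgc had 16.1, 23.5 and 40.3 FPKM (limma's adjusted p 0.0184, 0.0445 and 0.0262). Sh3gl3, an endophilin, had 25.4, 44.3 and 84.5 in control and 0, 0 and 0.203 FPKM in GL261 libraries (difference -5.46, SE 0.82, limma's adjusted p = 0.0191), and A4galt, a glycosyltransferase, had 49.6, 33.3 and 15.6 in control and 0.071, 0.268 and 0 FPKM in GL261 libraries (difference -4.79, SE 0.83, limma's adjusted p = 0.0279).

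Further single genes were among the falls. Prelp, a proteoglycan of basement membranes, had 284, 72.7 and 127 FPKM in control and 9.56, 3.24 and 0.198 FPKM in GL261 libraries (difference -5.20, SE 0.91, limma's adjusted p = 0.0279). Dcn, the proteoglycan decorin, had 21.8, 44.9 and 15.7 in control and 0.0851, 0.0804 and 0.146 FPKM in GL261 libraries (difference -4.56, SE 0.81, limma's adjusted p = 0.0302). Tgfb3, a transforming growth factor, had 41.3, 30.0 and 23.5 in control and 0.911, 1.13 and 0.0707 FPKM in GL261 libraries (difference -4.28, SE 0.79, limma's adjusted p = 0.034). Each of these was under 10 FPKM in every GL261 library and above 15 FPKM in every control library. Dcn was under 1 FPKM in every GL261 library and reached the expression limit through the control libraries alone. Gm525, a predicted gene, had 801, 1325 and 1600.0 in control and 33.5, 13.9 and 184 FPKM in GL261 libraries (difference -4.71, SE 0.81, limma's adjusted p = 0.0279), and Slc9a9, a sodium proton exchanger, had 26.4, 21.7 and 13.9 in control and 0.04, 1.06 and 0.0683 FPKM in GL261 libraries (difference -4.00, SE 0.81, limma's adjusted p = 0.0412).

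**Figure D3:**
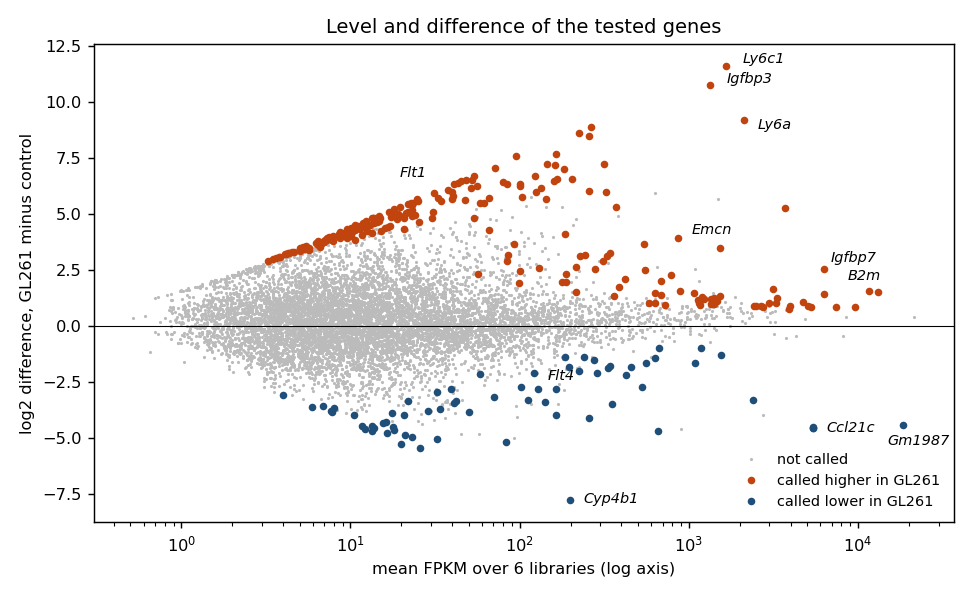
Mean FPKM over the 6 libraries (log axis) against the log2 difference, GL261 minus control, of the 8774 tested genes, with 1 point per gene and called genes in colour. Among the 3958 genes with a mean under 10 FPKM 54 were called higher and 6 lower (1.52% called). Among the 133 genes with a mean of at least 1000 FPKM 36 were called higher and 8 lower (33.1% called).

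Genes of antigen presentation were taken by their roles. MHC class I displays peptides of the cell's own proteins to cytotoxic T cells. Of 19 class I genes 17 were tested, and 5 were called higher and 0 lower. These were 29.4% of the tested members, against 3.36% of all tested genes. The median difference was 1.53, with 16 positive. It was 1.22 after rescaling and 1.12 after quantile normalization, each with 4 members called, and with any GL261 library left out 0 were called. Of the 5, H2-Q8 and H2-Q9 reached the expression limit through the GL261 libraries alone. B2m, the light chain, had 4629.6, 5650.3 and 7943 FPKM in control and 15798, 18703 and 16928 FPKM in GL261 libraries (difference 1.53, SE 0.19, limma's adjusted p = 0.0122). H2-K1, a classical heavy chain, had 319.8, 533 and 527 in control and 1405, 1348 and 1191 FPKM in GL261 libraries (difference 1.55, SE 0.25, limma's adjusted p = 0.0241). Both genes were abundant in all libraries, the GL261 libraries were close together, and every control library was lower.

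The nonclassical chains of the Q region share much sequence, so their FPKM may share reads. H2-Q7 had 4.15, 41.6 and 36.0 in control and 361, 275 and 399 FPKM in GL261 libraries (difference 4.09, SE 0.77, limma's adjusted p = 0.0356). The neighbour H2-Q8 was at 0 in each control library and had 99.6, 105 and 223 FPKM in GL261 libraries, and H2-Q9 was listed at 0, 0 and 1e-06 FPKM in control and 102, 95.7 and 28.4 FPKM in GL261 libraries (limma's adjusted p 0.00447 and 0.0158). H2-T22, a called gene outside the class I list, had less than 0.001 FPKM in each control library and 41.9, 67.2 and 8.10 FPKM in GL261 libraries (limma's adjusted p = 0.0395). H2-T22 reached the expression limit through the GL261 libraries alone, as did H2-Q8 and H2-Q9. The peptide transporter genes were not called, Tap1 with 0, 5.94 and 26.6 in control and 26.4, 19.8 and 64.0 FPKM in GL261 libraries and Tap2 with 0.27, 12 and 1.1 in control and 19.0, 35.3 and 52.2 FPKM in GL261 libraries (limma's adjusted p 0.336 and 0.123).

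MHC class II presents peptides taken up from outside and is mostly a property of immune cells. Of 13 class II genes 5 were tested and 0 were called, at a median difference of 4.45 with all 5 positive, and 2 of them were called without control replicate 3 and 1 with array weights. With detected genes as a covariate the median was 1.23, with 4 positive. Cd74, the invariant chain, had 0.627, 0.449 and 131 FPKM in control and 159, 961 and 40.4 FPKM in GL261 libraries (limma's adjusted p = 0.214). H2-Ab1 had 0, 0 and 72.7 in control and 141, 338 and 100.2 FPKM in GL261 libraries (limma's adjusted p = 0.112). GL261 replicate 2 was the highest library in all 5 tested genes, and it was also the library with the most Lyz2 and C1qa, while Ptprc was at 0 in it. The list summed to 0.627, 11.3 and 228 FPKM in control and 401, 2244 and 200.1 FPKM in GL261 libraries, so that the groups overlapped.

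The immunoproteasome cuts proteins into peptides suited to class I. All 5 of its genes were tested with 0 called and a median difference of 1.27 (0.96 after rescaling, 1.19 after quantile normalization). Psmb8 had 0, 33.4 and 107 in control and 501, 331 and 262 FPKM in GL261 libraries, Psmb9 0, 28.8 and 74.5 in control and 219, 245 and 234 FPKM in GL261 libraries, and Psmb10 54.4, 69.4 and 45.6 in control and 162, 150.0 and 102 FPKM in GL261 libraries (limma's adjusted p 0.147, 0.152 and 0.118). In each of these catalytic subunits every GL261 library was above every control library, and control replicate 1 was listed at 0 in Psmb8 and Psmb9. The activator subunit Psme1 had 277, 331 and 221 in control and 336, 286 and 373 FPKM in GL261 libraries, with overlap.

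Genes induced by interferon gamma, the interferon of T cells and natural killer cells, had a median difference of 3.15 over the 17 tested of 20, with 16 positive. Of the 17, 5 were called higher and 0 lower (29.4%, against 3.36% of all tested genes). The median was 2.86 after rescaling and 2.71 after quantile normalization, and with any GL261 library left out 0 were called. Of the 5, Cxcl10, Cxcl9 and Socs1 were at 0 in control and so reached the expression limit through the GL261 libraries alone, and among the 9 members above 0 in all 6 libraries 1 was called. Cxcl10, a chemokine for activated T cells, was listed at 0 in each control library and had 735, 81.9 and 52.8 FPKM in GL261 libraries, and its relative Cxcl9 was listed at 0 in control and had 422, 63.8 and 17.2 FPKM (limma's adjusted p 0.0176 and 0.034). GL261 replicate 1 was by far the highest in both chemokines and replicate 3 the lowest. Tgtp2, a guanosine triphosphatase against intracellular pathogens with a similar copy in Tgtp1, had 21.6, 18.6 and 11.2 in control and 145, 152 and 166 FPKM in GL261 libraries (difference 3.15, SE 0.44, limma's adjusted p = 0.0158). Gbp4, a guanylate-binding protein, had 0, 0 and 2.52 in control and 48.1, 34.7 and 53.0 FPKM in GL261 libraries (limma's adjusted p = 0.0279). Socs1, which damps interferon signals, was listed at 0 in control and had 56.8, 65.6 and 8.84 FPKM in GL261 libraries (limma's adjusted p = 0.0368). The groups did not overlap in any of these 5 genes, and Tgtp2 was the most even among the GL261 libraries.

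In the type I interferon response, of 30 genes 26 were tested, and 4 were called higher and 0 lower. These were 15.4% of the tested members, against 3.36% of all tested genes. The median difference was 1.44, with 22 positive (1.32 with 2 called after rescaling, 1.23 with 3 called after quantile normalization). Ifitm3, a membrane protein that blocks virus entry, had 2673, 3845 and 3842 in control and 9593, 8679.8 and 9376 FPKM in GL261 libraries (difference 1.43, SE 0.17, limma's adjusted p = 0.00902). Irf7, a transcription factor of the response, had 8.81, 0 and 0.54 in control and 178, 122 and 293 FPKM in GL261 libraries (difference 6.24, SE 0.92, limma's adjusted p = 0.0178). Ifit3 had 0, 0 and 10.5 in control and 201, 71.1 and 69.4 FPKM in GL261 libraries and Rtp4 had 11.9, 44.0 and 11.1 in control and 212, 106 and 122 FPKM in GL261 libraries (limma's adjusted p 0.038 and 0.0481). Each of the 4 genes was higher in every GL261 library than in every control library, and with any GL261 library left out 0 of them were called. Isg15, an abundant gene of this response in many cells, had 0, 46.5 and 57.7 in control and 22.7, 9.42 and 9.64 FPKM in GL261 libraries, with overlap.

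Promoters of these lists were searched for a motif, chosen after the values had been seen. The promoters are those of RefSeq on build GRCm38.p6, from 250 bases before to 50 after the start of each gene, and the motif was GAAA, any 2 bases and GAAA again on either strand, the core of the interferon-stimulated response element, whose sites may overlap each other. It was present in 1079 of 27025 promoters (3.99%), in 259 of the 6699 tested genes with a promoter (3.87%), in 18 of the 164 called higher (11%) and in 1 of the 55 called lower (1.82%). Among members with a promoter it was present in 11 of 15 genes of the interferon gamma list, 12 of 22 of the type I list and 3 of 14 of MHC class I. Among called members with a promoter it was present in 3 of 4, 2 of 3 and 1 of 3, so that 4 such members, Cxcl9, Irf7, H2-K1 and H2-Q7, lacked it. A match is a description of these letters and not a bound site or a cause. The promoters of Cxcl10 (minus strand, chr5:92348840-92349139), Tgtp2 (minus strand, chr11:49064163-49064462), Ifit3 (plus strand, chr19:34583279-34583578) and B2m (plus strand, chr2:122147437-122147736) are shown, picked among called members with a match, with the matches in capitals, where TTTC, 2 bases and TTTC are the motif on the other strand.
Cxcl10: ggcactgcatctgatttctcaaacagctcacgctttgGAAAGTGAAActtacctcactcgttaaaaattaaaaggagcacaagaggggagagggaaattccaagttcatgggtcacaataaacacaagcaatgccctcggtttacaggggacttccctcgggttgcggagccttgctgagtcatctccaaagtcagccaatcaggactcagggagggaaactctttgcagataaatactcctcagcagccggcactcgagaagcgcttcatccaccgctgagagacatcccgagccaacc
Tgtp2: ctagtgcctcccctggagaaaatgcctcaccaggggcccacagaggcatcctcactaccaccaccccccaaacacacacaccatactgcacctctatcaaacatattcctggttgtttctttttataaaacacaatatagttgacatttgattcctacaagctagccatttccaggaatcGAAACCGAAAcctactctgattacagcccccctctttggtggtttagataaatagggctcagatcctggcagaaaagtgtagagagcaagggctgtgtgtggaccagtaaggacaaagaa
Ifit3: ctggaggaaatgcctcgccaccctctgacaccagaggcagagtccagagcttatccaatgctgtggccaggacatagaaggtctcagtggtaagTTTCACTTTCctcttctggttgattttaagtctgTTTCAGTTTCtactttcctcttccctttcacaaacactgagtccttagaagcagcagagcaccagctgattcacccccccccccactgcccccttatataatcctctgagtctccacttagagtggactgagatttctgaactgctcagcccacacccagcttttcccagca
B2m: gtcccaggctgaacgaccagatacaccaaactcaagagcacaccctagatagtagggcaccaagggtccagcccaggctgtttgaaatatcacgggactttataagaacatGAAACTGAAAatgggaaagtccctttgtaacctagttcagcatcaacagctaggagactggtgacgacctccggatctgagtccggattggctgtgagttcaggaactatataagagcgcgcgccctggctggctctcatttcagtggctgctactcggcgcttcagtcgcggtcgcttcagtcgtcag

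The list of chemokines other than Ccl21 also holds scavenging receptors, and Cxcl9 and Cxcl10, both called, are on the interferon gamma list instead. Of its 15 genes 9 were tested and 1 was called (11.1%, against 3.36% of all tested genes). The median difference was 1.74 (1.57 and 1.63 after rescaling and quantile normalization). Ccl8, which draws monocytes, was listed at 0 in control and had 16.4, 932 and 52.1 FPKM in GL261 libraries, with replicate 2 far above the others (limma's adjusted p = 0.0455, and not called with any library left out). Ccl8 reached the expression limit through the GL261 libraries alone. Cxcl1 had 0, 0 and 62.9 in control and 63.5, 97.7 and 633 FPKM in GL261 libraries, and Ccl2 had 66.7, 24.0 and 64.2 in control and 30.9, 168 and 115 FPKM in GL261 libraries (limma's adjusted p 0.127 and 0.619). The scavenging receptor Ackr3 had 0.678, 8.44 and 0.458 in control and 96.8, 37.7 and 33.7 FPKM in GL261 libraries, without overlap and not called (limma's adjusted p = 0.0558).

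No adhesion molecule for leukocytes was called. Of 16 genes on the list 10 were tested, with a median difference of 1.86 and 8 positive, while 1529 genes in all had an unadjusted p under 0.05. Icam1 had 0, 68.4 and 17.5 FPKM in control and 115, 138 and 104 FPKM in GL261 libraries, and Vcam1 had 0, 10.7 and 0 in control and 21.9, 3.34 and 6.26 FPKM in GL261 libraries (limma's adjusted p 0.222 and 0.475). Mcam, an adhesion molecule of endothelial junctions, had 38.4, 3.73 and 0 in control and 173, 139 and 189 FPKM in GL261 libraries (limma's adjusted p = 0.0644). Icam1 and Mcam were higher in each GL261 library than in each control library, and Vcam1 overlapped. Without control replicate 1 or 2, 1 and 2 genes of the list were called, as were 1 with 10 added to FPKM, 1 with array weights and 2 with all 9 libraries. With detected genes as a covariate the median was -0.48, with 4 of 10 positive.

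In the VEGF pathway ligands and receptors were set apart by vessel type. Of 12 genes 7 were tested, and Flt1 and Vegfc were called higher and Flt4 lower. These were 42.9% of the tested members, against 3.36% of all tested genes. The median difference was -0.36 (-0.67 after rescaling, -0.32 after quantile normalization). Flt1 and Vegfc reached the expression limit through the GL261 libraries alone. With any GL261 library left out 0 members of the list were called, and without a trend 3 were called higher and 0 lower. Vegfc, the lymphatic growth factor itself, was listed at 0 in each control library and had 40.2, 19.0 and 15.5 FPKM in GL261 libraries (limma's adjusted p = 0.0279). It was called in 7 of 18 alternatives. Kdr, the main VEGF receptor, had 30.3, 56.7 and 43.3 in control and 26.4, 49.6 and 26.4 FPKM in GL261 libraries with overlap. The coreceptor gene Nrp1 had 0.106, 0.819 and 0 in control and 7.45, 34.0 and 20.6 FPKM in GL261 libraries, and Nrp2 had 28.8, 53.6 and 40.4 in control and 15.5, 14.6 and 15.7 FPKM in GL261 libraries. The groups did not overlap in either neuropilin, Nrp1 being higher and Nrp2 lower in GL261 libraries, and neither was called (limma's adjusted p 0.0546 and 0.24).

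Of 15 nitric oxide and caveola genes 13 were tested, 3 called higher and 1 lower (30.8% of the tested members, against 3.36% of all tested genes), with a median difference of -0.07 (-0.38 after rescaling, -0.17 after quantile normalization). The 3 called higher reached the expression limit through the GL261 libraries alone, and among the 8 members above 0 in all 6 libraries 0 were called higher and 1 lower, at a median of -0.52. With any GL261 library left out 0 members were called, and without a trend 3 were called higher and 0 lower. Beside Nostrin, Ass1, which makes the precursor of arginine, had 0, 0 and 0.592 in control and 125, 95.2 and 21.5 FPKM in GL261 libraries (difference 5.80, SE 0.91, limma's adjusted p = 0.021). Ddah1, which breaks down inhibitors of nitric oxide synthase, was listed at 0 in control and had 25.4, 9.18 and 20.2 FPKM in GL261 libraries (limma's adjusted p = 0.0356). Sdpr, a coat protein of caveolae, had 252, 379.7 and 291 in control and 60.7, 101 and 96.7 FPKM in GL261 libraries (difference -1.84, SE 0.34, limma's adjusted p = 0.0348). Cav1, the main caveola protein, was also lower in each GL261 library, at 260.1, 326 and 199 in control and 137, 56.1 and 127 FPKM in GL261 libraries, and was not called (limma's adjusted p = 0.129).

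Of 18 genes of sprouting blood vessels 16 were tested and 5 were called higher, Igfbp3, Rgcc, Aplnr, Col4a2 and Kcne3 (31.2% of the tested members, against 3.36% of all tested genes), and the median difference was 2.36 (2.19 after rescaling, 2.14 after quantile normalization). Among its 8 members above 0 in all 6 libraries the median was -0.039, with 4 positive and 2 called. Igfbp3 and Aplnr reached the expression limit through the GL261 libraries alone. With any GL261 library left out 1 member was called. This list shares members with the blood endothelial and IGF lists, so the counts are not independent. Col4a2, a collagen of basement membranes, had 19.2, 25.6 and 52.7 in control and 183, 186 and 137 FPKM in GL261 libraries (difference 2.46, SE 0.47, limma's adjusted p = 0.0365). Kcne3, a potassium channel subunit, had 1.09, 1.94 and 0 in control and 17.8, 189.7 and 157 FPKM in GL261 libraries (difference 5.50, SE 1.04, limma's adjusted p = 0.0356). Angpt2, which lymphatic endothelium uses too, had 303, 244 and 109.7 in control and 81.6, 43.2 and 209 FPKM in GL261 libraries, with overlap, and was not called (difference -1.14). Among the 15 tested genes of basement membrane and collagen Col4a2 was the 1 called (0 after rescaling, 3 called with array weights and 4 with all 9 libraries), the median difference was 1.18 (1.18 and 0.83 after rescaling and quantile normalization), and Sparc, the most abundant, had 97.4, 491 and 612 in control and 1799, 1908 and 1667 FPKM in GL261 libraries (limma's adjusted p = 0.0644). In the Notch pathway 13 of 17 genes were tested with 0 called by limma and a median difference of 0.19, which was -0.11 after rescaling and 0.05 after quantile normalization. Without control replicate 2, 1 gene of the pathway was called higher.

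Metabolic genes were taken by pathway, beside 3.36% called over all tested genes. Of 24 genes of glycolysis and hypoxia 20 were tested and 3 were called higher (15% of the tested members), at a median difference of 0.83 (0.55 after rescaling, 0.60 after quantile normalization, each with 2 called). With any GL261 library left out 0 of the list were called, and without a trend 1. Gapdh had 736, 918 and 586 in control and 1752, 1682 and 1670.4 FPKM in GL261 libraries (difference 1.21, SE 0.21, limma's adjusted p = 0.0279). Ldha, lactate dehydrogenase, had 107, 111 and 44.1 in control and 485, 508 and 428 FPKM in GL261 libraries (difference 2.54, SE 0.40, limma's adjusted p = 0.0212). With Slc2a1, these genes were without overlap and the GL261 libraries close together, while the glycolytic enzyme Aldoa overlapped, with 442, 274 and 289 in control and 442, 429.6 and 312 FPKM in GL261 libraries. Of 22 fatty acid genes 16 were tested, and the fatty acid carrier Fabp4 was called higher and the fatty acid receptor Cd36 lower (12.5% of the tested members), at a median difference of -0.38 (-0.69 and -0.57 after rescaling and quantile normalization). Fabp4 had 4.81, 33.2 and 22.7 in control and 562, 435 and 1173 FPKM in GL261 libraries (difference 5.30, SE 0.69, limma's adjusted p = 0.0126), and Cd36 had 92.6, 33.3 and 63.5 in control and 0, 0 and 4.77 FPKM in GL261 libraries (difference -5.04, SE 0.95, limma's adjusted p = 0.0356). With any GL261 library left out neither was called. Of 71 tested subunits of the respiratory chain 1 was called, Ndufa12, and the median difference of 0.32 was close to that of all genes and went to 0.01 after rescaling and to -0.05 after quantile normalization.

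Of 28 cell cycle genes 18 were tested, and 4 were called higher and 0 lower. These were 22.2% of the tested members, against 3.36% of all tested genes. The median difference was 2.41, with 16 positive (2.46 after rescaling and 2.07 after quantile normalization, with 1 and 2 called). Among the 6 members above 0 in all 6 libraries the median was 1.21 with 0 called. Birc5, which encodes the mitotic protein survivin, and the replication helicase genes Mcm2 and Mcm5 were listed at 0 in each control library. They reached the expression limit through the GL261 libraries alone. In GL261 libraries Birc5 had 10.5, 73.4 and 155 FPKM, Mcm2 7.91, 7.84 and 31.7 FPKM and Mcm5 9.51, 5.87 and 9.72 FPKM (limma's adjusted p 0.0361, 0.0499 and 0.0444). Stmn1, which breaks down microtubules, had 0, 0 and 17.1 in control and 67.2, 95.2 and 444 FPKM in GL261 libraries (limma's adjusted p = 0.0493). GL261 replicate 3 was the highest of the libraries in these genes and in Ube2c (9.35, 7.58 and 137 FPKM, listed at 0 in control). The proliferation markers Mki67 and Top2a did not reach the expression limit. With any GL261 library or with control replicate 1 or 2 left out, 0 of the 18 were called, and with equal numbers of detected genes 0 were called as well.

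Stress genes, which tissue dissociation can induce, did not pass. All 20 immediate early genes were tested with 0 called and a median difference of -0.01 (-0.32 after rescaling, and -0.24 after quantile normalization, where 2 were called lower), and Fos, the most abundant, had 1292, 1034 and 778 in control and 519, 1242 and 1281 FPKM in GL261 libraries. All 16 heat shock genes were tested with 0 called and a median of 0.40 (0.10 after rescaling, 0.35 after quantile normalization), and Hspa8 had 1103, 799 and 874 in control and 1144, 1294 and 1295 FPKM in GL261 libraries. The groups overlapped in Fos and nearly met in Hspa8. Without control replicate 2, 1 heat shock gene was called higher, and with all 9 libraries 1 immediate early gene was called lower. Of the 10 tested flow-responsive genes 0 were called, at a median of -0.33 (-0.63 and -0.43 after rescaling and quantile normalization), and Gja4, a connexin of arteries and lymphatic valves, had 146, 39.9 and 67.2 in control and 0, 16 and 0 FPKM in GL261 libraries without overlap (limma's adjusted p = 0.0694). With 10 added to FPKM 1 flow-responsive gene was called lower.

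Genes of the actin cytoskeleton and cell shape were all 28 tested, 5 called higher and 0 lower (17.9%, against 3.36% of all tested genes), at a median difference of 0.59 (0.29 after rescaling, 0.37 after quantile normalization, each with 3 called). Cdc42ep3 and Lcp1 reached the expression limit through the GL261 libraries alone, and among the 18 members above 0 in all 6 libraries 2 were called, at a median of 0.40. With any GL261 library left out 0 of the 28 were called. Capg, which caps actin filaments, had 0, 22.6 and 0.818 in control and 307, 348 and 279 FPKM in GL261 libraries (difference 6.47, SE 1.08, limma's adjusted p = 0.0253). Cdc42ep3, an effector of a regulator of cell shape, had 0, 0.303 and 0 in control and 38.0, 148 and 52.5 FPKM in GL261 libraries (difference 5.95, SE 0.83, limma's adjusted p = 0.0164). Lcp1, which bundles actin and is best known from leukocytes, was listed at 0 in control and had 35.5, 40.2 and 33.1 FPKM in GL261 libraries (limma's adjusted p = 0.0176). All GL261 libraries were close to each other in Capg and Lcp1, and GL261 replicate 2 was the highest in Cdc42ep3. The actins themselves rose little, Actb by 0.84 and Actg1 by 1.15 on the log2 scale (limma's adjusted p 0.041 and 0.034), and neither was called after rescaling or quantile normalization.

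Reference genes give the size of such general shifts. Of 18 housekeeping genes, B2m, Actb and Gapdh were called higher and 0 lower, and the median difference was 0.53 (0.22 and 0.35 after rescaling and quantile normalization, each with 1 called). Eef1a1 had 3325, 2709.7 and 3170.4 in control and 3388, 3456 and 3307 FPKM in GL261 libraries, with a difference of 0.15 (-0.16 after rescaling and -0.36 after quantile normalization) that was not called. Of 76 ribosomal protein genes 21 were called higher and 0 lower (27.6% of the tested members, against 3.36% of all tested genes). All 76 differences were positive, and the median was 0.78. After rescaling and quantile normalization 67 and 60 stayed positive, 2 and 1 were called, and the median was 0.47 and 0.32. Without a trend in the fit 0 were called. Their summed FPKM was 105776, 111256 and 93193 in control and 179314, 176460.0 and 168323 in GL261 libraries, and with any GL261 library left out 0 were called. Of the 133 tested genes of any kind with a mean of at least 1000 FPKM, 33.1% were called.

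Other lists were taken the same way. Among genes above 0 in all 6 libraries, over which the median was -0.0755, it was 0.85 for MHC class I (3 of 12 called), 2.41 for interferon gamma (1 of 9), 0.82 for type I interferon (3 of 13), 0.70 for the IGF pathway (3 of 6) and 0.49 for leukocyte adhesion (0 of 4). The sign turned in the sprouting list, in the blood-brain barrier list, at -0.44 over 4 genes, and in the Notch pathway, at -0.59 over 9, while the lymphatic list had -2.59 with 8 of 17 called lower and the ribosomal list 0.78 with 21 of 76 called higher. Elsewhere it was 0.73 for pan-endothelial genes (3 of 23), 0.53 for basement membrane (2 of 12), 0.51 for glycolysis and hypoxia (2 of 15), 0.47 for housekeeping genes (3 of 16), 1.29 for chemokines (1 of 4), -0.59 for fatty acid genes (1 of 11) and -0.84 for the VEGF pathway (2 of 4, 1 in each direction). In the main fit the median share of called genes over the lists with tested members was 13.75%, against 3.36% of all tested genes.

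**Figure D4:**
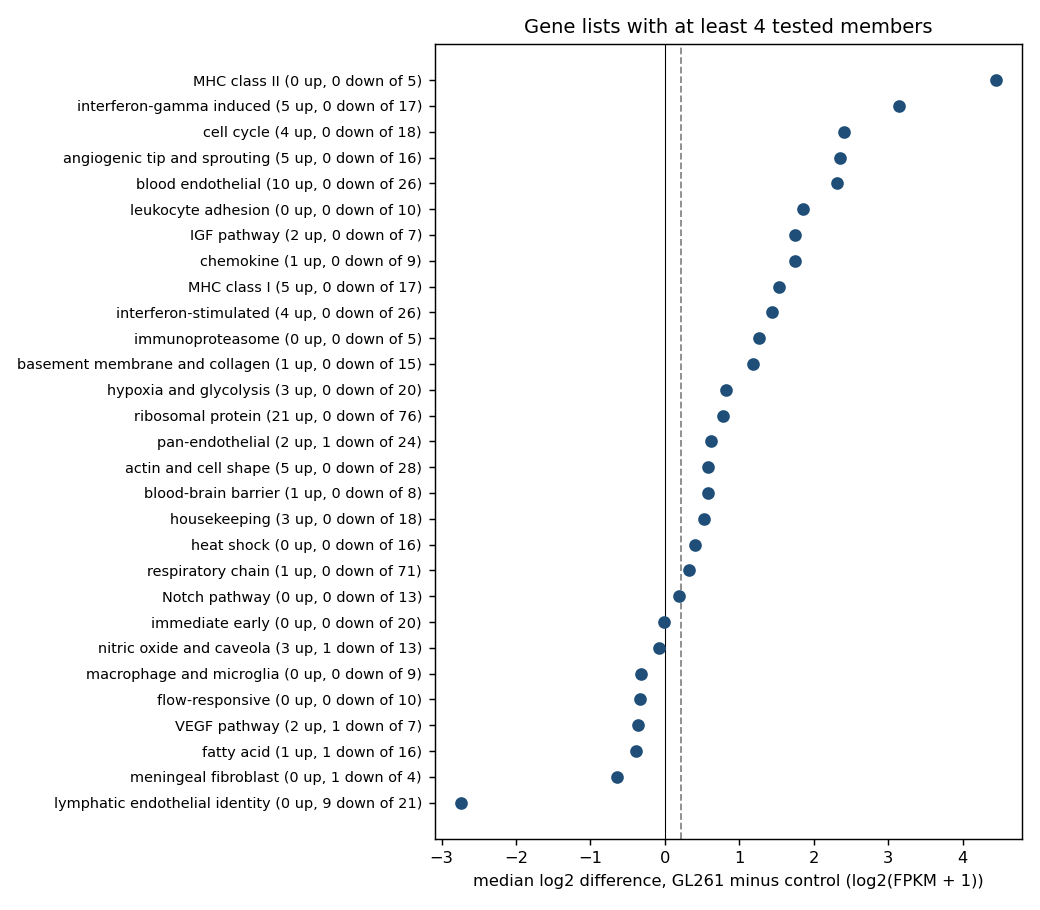
Median log2 difference, GL261 minus control, of each gene list with at least 4 tested members, with 1 point per list and the number of members called higher and lower at its name. The dashed line is the median of 0.22 over all tested genes, from which the lymphatic list, at -2.73, and the blood endothelial list, at 2.31, lie on opposite sides.

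Some called genes were next to each other in the order of tested genes, which may have other genes between them. Among the 8092 tested genes with a single position in the GENCODE M1 annotation of mm9, 16 pairs in that order were both called higher and 2 both called lower. These numbers were not compared with what chance gives. The higher pairs include Ly6a with Ly6c1 and Ly6c1 with Ly6c2 on chromosome 15, Ifitm2 with Ifitm1 and Ifitm1 with Ifitm3 on chromosome 7, and H2-Q8 with H2-Q7 on chromosome 17, families whose members are alike and may share reads. Ifitm1 was listed at 0 in control and had 221, 18.3 and 736 FPKM in GL261 libraries, and Ifitm2 had 1807, 2051 and 2121 in control and 5104, 4587 and 4292 FPKM in GL261 libraries (limma's adjusted p 0.0279 and 0.0104). Ifitm1 reached the expression limit through the GL261 libraries alone. Ly6c2, Ifitm1, Ifitm2 and Rasgrp2 were chosen after their values were seen. The lower pairs were Gm1987 with Ccl21c on chromosome 4 and Pygm with Rasgrp2, which are unrelated in sequence, on chromosome 19 from 6384399 to 6398459 and from 6399340 to 6415216. Rasgrp2, an activator of Ras-like proteins, had 28.0, 46.8 and 44.5 in control and 2.89, 1.78 and 0.461 FPKM in GL261 libraries (difference -3.99, SE 0.77, limma's adjusted p = 0.0367).

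The tumors were compared directly in a fit of all 9 libraries, since both differences from control share the control libraries. Of 9955 genes tested, 1 was called between GL261 and B16 MLECs (0.01%), and 548 had an unadjusted p under 0.05. The gene was B2m, with 15798, 18703 and 16928 FPKM in GL261, 3268, 3525 and 3114 FPKM in B16 and 4629.6, 5650.3 and 7943 FPKM in control libraries. The GL261 libraries were above and the B16 libraries below every control library (GL261 minus B16 2.37, SE 0.18, limma's adjusted p = 0.0002). Ackr1 was listed at 0 in B16 replicates 1 and 2 and had 114 FPKM in replicate 3, against 543, 168 and 636 FPKM in GL261 libraries, and Tgtp2 had 28.3, 9.72 and 9.68 FPKM in B16 against 145, 152 and 166 FPKM in GL261 libraries, neither of them called between the tumors. Without B16 replicate 3, 4 genes were called, Ackr1, B2m, Ctla2a and Ifi27l2a, and without B16 replicate 1 these were 2, B2m and H2-Q8. Cyp4b1 was called beside B2m without GL261 replicate 1 and after quantile normalization, and Ifitm1 beside B2m without GL261 replicate 2. Igfbp3 had 1501, 3405 and 2823 FPKM in B16 libraries beside 2475, 2354 and 3206 FPKM in GL261 libraries, and Flt4 had 106, 56.3 and 59.4 FPKM beside 40.1, 45.4 and 49.0 FPKM. For most of the response described here a difference between the tumors was not detected with 3 libraries each. The labels give about 3 weeks from injection to collection for GL261 and 2 for B16, and the methods inject more GL261 than B16 cells. Tumor type cannot be told apart from these by design. The B16 libraries were 1.69, 3.14 and 3.80 times as deep as control replicate 3 by the estimate, the GL261 libraries 6.29, 6.73 and 3.70 times. The part of depth in this contrast was not tested.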

How the data were processed

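RNA of 10 sorted meningeal lymphatic endothelial cells per library, from pools of 6 mice, was sequenced after Smart-seq2 amplification. The authors aligned reads to mm9 with TopHat2 2.0.12 and deposited values in FPKM per gene from Cufflinks 2.2.1. Read counts were not used here, so depth was estimated from the lowest FPKM. The 3 GL261 libraries were compared with the 3 control libraries on log2(FPKM + 1) over the 8774 genes that reached an FPKM of 1 in 3 or more of the 6 libraries, by limma 3.58.1 in R 4.3.3 (lmFit, eBayes with a trend, Benjamini-Hochberg adjustment over all tested genes, threshold 0.05). Totals were compared by exact permutation. Python 3.11.15 was used for tables and plots (matplotlib 3.10.9, scipy 1.17.1, pandas 2.3.3, numpy 2.4.6). Named genes are, by a rule, the 10 largest rises and 10 largest falls among called genes without overlap, the same among genes above 0 in all 6 libraries, the called and the 4 most abundant members of each of 33 gene lists, the sorting markers, and genes called between GL261 and B16, and any list member may be named. The lists, the rule and the libraries were chosen with earlier results of these data known. Alternatives changed the number added to FPKM, scaling, filter, handling of depth, model, measure and libraries.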

Additional observations from a re-analysis of the deposited data

How the results depend on the processing

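The count of 295 called genes (227 higher, 68 lower) depended on the processing more than the direction of single genes did. No called gene changed the sign of its difference in any of the alternatives in which it was tested, and 2, Igfbp3 and Ly6c1, were called in all of them. Both reached the expression limit through the GL261 libraries alone. Another number added to FPKM (0.1 or 10), no trend and array weights moved no total of called genes by more than 1.5 times, while lists moved more. Without a trend the called members went from 21 to 0 in the ribosomal list, from 9 to 4 in the lymphatic, from 4 to 1 in type I interferon, from 5 to 3 in MHC class I and from 3 to 1 in glycolysis and hypoxia. Rescaled libraries gave 138 and quantile normalization 137 genes called higher. Testing every gene with any FPKM above 0 (13006 genes) gave 31 called genes, 25 higher and 6 lower, where the larger number of low genes enters the same fit and adjustment. With a mean FPKM of at least 10 (4871 genes) 143 were called higher, and with genes above 0 in all 6 libraries (4912 genes) 172 were called, 89 of them higher. With all 9 libraries in the fit 108 were called lower. The study's measure, ROC power, which has no p and no spread, passed 4374 genes, 2417 higher and 1957 lower. Power above 0.4 and a natural-log fold of means of at least 0.25 were asked for. The study ran the measure in Seurat on tumor-associated against control MLECs, so these counts are not those of the study. Except where the construction of an alternative gives it, the cause of these shifts was not tested.

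Detected genes were treated in 2 ways. With each library reduced to the number of detected genes of the poorest library 160 genes were called, 113 of them higher, and 158 of the 160 were among the 295. With the log2 number of detected genes as a covariate 2 were called, 2 higher and 0 lower, and since that number separates the groups, the fit leaves little of the group difference to test. The median of the lymphatic list was -2.85 with equal numbers of detected genes and -2.19 with the covariate, with 5 and 0 called, and that of the blood endothelial list 2.31 and 2.33, with 9 and 1 called.

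Among genes that were not called, the sign of the log2 difference changed in some alternatives, and the cause was not tested. With detected genes as a covariate the difference was 0.81 in Angpt2, -0.65 in Cdh5, 0.95 in Cxcl12, 0.74 in Fos, -1.84 in Icam1, 0.57 in Ifi27l2a, 1.07 in Lyve1, -6.87 in Lyz2, 4.99 in Myl9, -0.25 in Plvap, -0.68 in Psmb8, -0.29 in Psmb9 and -0.90 in Vcam1. After rescaling it was -0.0569 in Aldoa, -0.16 in Eef1a1 and -0.0341 in Psme1, and after quantile normalization -0.0043 in Aldoa, -0.36 in Eef1a1, -0.0715 in Hspa8 and -0.21 in Lyz2. With 10 added to FPKM it was 0.26 in C1qa and -0.0338 in Lyz2, with 0.1 added 0.99 in Isg15, with equal numbers of detected genes -0.27 in Lyz2 and with array weights 0.19 in Myl9. With 1 library left out it ranged from -2.00 to 1.57 in C1qa, -0.33 to 0.32 in Fos, -1.94 to 1.00 in Isg15, -1.88 to 1.78 in Lyz2, -2.94 to 2.21 in Myl9 and -1.98 to 0.14 in Tgtp1.

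Median differences of some lists turned sign as well, and the cause was not tested. With detected genes as a covariate the median was -0.50 in the pan-endothelial list, -0.48 in leukocyte adhesion, -0.24 in the Notch pathway, 0.77 in immediate early genes and -0.0515 in the respiratory chain. After rescaling it was -0.11 in the Notch pathway, and after quantile normalization -0.0469 in the respiratory chain. With a mean FPKM of at least 10 it was -0.22 in the blood-brain barrier list and 0.55 in meningeal fibroblast genes, where 2 were tested. Among genes above 0 in all 6 libraries it was -0.44 in the blood-brain barrier list, -0.59 in the Notch pathway and -0.039 in the sprouting list. For macrophage and microglia genes it was 0.25 with 0.1 added to FPKM and 0.17 with array weights, which gave 0.0133 for nitric oxide and caveola genes. With 1 library left out it ranged from -1.52 to 0.71 in macrophage and microglia genes, -0.13 to 0.21 in nitric oxide and caveola genes, -0.60 to 0.0208 in fatty acid genes, -0.81 to 0.39 in mural cell genes, -0.16 to 0.59 in the Notch pathway and -0.31 to 0.36 in immediate early genes.

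The replicate numbers were tried as a block. They do not pair libraries across the groups, since each is another pool of mice, and correlations between same-numbered libraries, from which the group means had been taken, were -0.00315, 0.0136 and -0.00374, all near 0. The block gave 123 called genes, 97 higher and 26 lower, 116 of them among the 295.

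With 1 library left out, called genes numbered 17 to 201, higher genes 11 to 168 and lower genes 6 to 33, the lowest without a GL261 library. Genes whose groups do not overlap numbered 1468 to 1940 higher and 1053 to 1533 lower, because 2 against 3 libraries separate more easily. With a mean FPKM of at least 10, 739 genes higher and 579 lower were without overlap, and among genes above 0 in all 6 libraries 538 were higher and 744 lower. After rescaling they were 913 higher and 1166 lower, and after quantile normalization 976 and 1111. Between GL261 and B16, quantile normalization gave 2 called genes and leaving out 1 library 1 to 4.

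At the estimated depth 1 fragment of a transcript of 1 kb would read as 0.548 to 0.886 FPKM in control and 0.132 to 0.239 FPKM in GL261 libraries, so genes near these levels can be listed at 0 in control and above 0 in GL261 MLECs without a difference in RNA. Depth, amplification of 10 cells and glioma were not separated by the design, each group holds 3 pools, and all mice were male. Glioma and the injection of living cells cannot be told apart, since the control mice received PBS.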

Other observations

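Called genes outside the lists were looked at after their values were seen. Lrg1, a glycoprotein that acts in the growth of blood vessels, had 159, 289 and 313 in control and 3033, 1905 and 3479.5 FPKM in GL261 libraries (difference 3.48, SE 0.33, limma's adjusted p = 0.00358). Timp1, an inhibitor of matrix proteases, was listed at 0 in every control library and had 137, 61.7 and 89.3 FPKM in GL261 libraries (limma's adjusted p = 0.00788). Timp1 reached the expression limit through the GL261 libraries alone. Its relative Timp2 had 300.2, 192 and 274 in control and 44.5, 21.7 and 11.4 FPKM in GL261 libraries (difference -3.43, limma's adjusted p = 0.0208). The libraries of each group lay together in these genes, apart from those of the other group. Tagln2, an actin-binding protein, had 66.6, 89.2 and 62.0 in control and 621, 443 and 593 FPKM in GL261 libraries (difference 2.91, limma's adjusted p = 0.00524), and Sod1, which removes superoxide, had 698, 961 and 887 in control and 2126, 1967 and 1863 FPKM in GL261 libraries (difference 1.24, limma's adjusted p = 0.0208).

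Sepp1, which encodes the selenium carrier selenoprotein P, was the most abundant gene called lower apart from the Ccl21 copies, with 4043, 4446 and 4528 in control and 394, 343 and 612 FPKM in GL261 libraries (difference -3.31, SE 0.24, limma's adjusted p = 0.000778). It was even within both groups and stayed called with any library left out. Aqp1, a water channel, had 537, 642 and 733 in control and 115, 34.6 and 42.0 FPKM in GL261 libraries (difference -3.50, limma's adjusted p = 0.0126). Tgfbr2, a receptor of transforming growth factors, had 176, 168 and 335 in control and 37.8, 23.5 and 29.6 FPKM in GL261 libraries (difference -2.81, limma's adjusted p = 0.0199). The genes Cst3, a protease inhibitor, and Cd63, a protein of lysosomes, fell by 1.32 and 1.42 on the log2 scale (limma's adjusted p 0.0287 and 0.0356), and in each of these genes every GL261 library was below every control library.

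Rn45s, the precursor of ribosomal RNA, had 7446, 5697 and 7453 in control and 18940.1, 19953 and 19622 FPKM in GL261 libraries (difference 1.52, SE 0.13, limma's adjusted p = 0.00238). A library primed on poly(A) tails should hold little of this RNA, and its share was not examined further. In GL261 replicate 2 the small nuclear RNA gene Rnu12 had 65812 FPKM, 7.41% of the sum of that library.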
